A study of Mus musculus with 16 samples.

Results

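Tpmt, Nmrk1, Sirt5, Asic5, Sugct, Mme, Nt5e, Nat8f5 and Raet1d are 9 liver genes whose array signal differed between PPARβ/δ knockout and wild-type mice and which belong to no pathway commonly tied to that receptor. They were picked by name because of that difference. Each is paired with exactly 1 probe set of its own, so the description rests on 9 of 35519 probe sets, and on 9 of the 19935 genes that had a probe set of 1 symbol. The male mice were bred on a mixture of Sv129 and C57Bl/6, and each liver was hybridised to 1 array, in 4 groups that differ in genotype and feeding: 3 knockout mice fasted for 24 h, 5 wild-type mice fasted for 24 h, 4 knockout fed mice and 4 wild-type fed mice. The knockout mice lack PPARβ/δ, a nuclear receptor for fatty acids encoded by Ppard. Which part of it was deleted, how old the mice were and whether wild-type mice were littermates is not stated in the labels. Because the background is mixed, the genotypes may also differ in Sv129 or C57Bl/6 sequence elsewhere in the genome, and neither strain sequence nor the sequences of the array's probes were used here, so whether either is the source of a difference was not tested.

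The 9 genes do unrelated work. Tpmt encodes thiopurine S-methyltransferase, which inactivates thiopurine drugs. Nmrk1 phosphorylates nicotinamide riboside on the way to NAD, and Sirt5 uses NAD in mitochondria to strip succinyl and glutaryl groups from lysines. Sugct moves coenzyme A from succinyl-CoA onto glutarate, a product of lysine breakdown. Nat8f5 belongs to a family of N-acetyltransferases, of which human NAT8 acetylates cysteine conjugates. At the cell surface, Nt5e (CD73) turns AMP into adenosine, Mme (neprilysin) cuts small peptides, Asic5 is a sodium channel that responds to bile acids, and Raet1d is a ligand of the receptor NKG2D of natural killer cells.

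PPARs bind DNA with RXR at a direct repeat of AGGTCA with 1 base between the copies. To show what the reference sequence holds just before these genes, the RefSeq promoter windows of GRCm38.p6 (250 bases before to 50 after a transcript start) were searched on both strands. All 9 genes matched, with 11 windows. None of the 11 held AGGTCANAGGTCA, which 0.0396% of all 32851 windows hold. The single copy AGGTCA, which lies within that repeat, was found in 3 of the 11 windows, against 16.3% of all windows. These windows belong to 3 genes. The 250 bases before the start of these 3 follow, 5′ to 3′ on the gene's strand, with the copies in capitals (TGACCT is the same site on the other strand). Sirt5 has it 196 and 164 bases before the start, Nat8f5 at 84 bases and Sugct at 15 bases. These are matches of letters in the C57BL/6J reference and say nothing about binding in these livers.
Sirt5, chr13:43365285-43365534, plus strand: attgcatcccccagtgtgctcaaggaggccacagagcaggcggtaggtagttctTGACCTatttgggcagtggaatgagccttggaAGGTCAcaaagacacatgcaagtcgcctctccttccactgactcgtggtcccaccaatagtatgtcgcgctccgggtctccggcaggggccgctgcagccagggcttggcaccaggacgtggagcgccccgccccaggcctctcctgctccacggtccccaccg
Nat8f5, chr6:85820973-85821222, minus strand: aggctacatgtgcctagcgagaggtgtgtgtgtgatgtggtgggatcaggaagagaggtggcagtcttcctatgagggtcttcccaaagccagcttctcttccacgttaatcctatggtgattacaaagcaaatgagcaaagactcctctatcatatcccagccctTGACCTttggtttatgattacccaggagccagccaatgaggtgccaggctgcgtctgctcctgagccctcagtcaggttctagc
Sugct, chr13:17694766-17695015, minus strand: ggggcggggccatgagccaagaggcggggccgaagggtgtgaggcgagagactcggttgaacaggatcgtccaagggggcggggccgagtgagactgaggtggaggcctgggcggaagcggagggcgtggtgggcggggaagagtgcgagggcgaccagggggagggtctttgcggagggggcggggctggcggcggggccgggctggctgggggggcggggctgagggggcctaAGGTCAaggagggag

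Arrays carried liver signal throughout: the hepatocyte products Alb, Apoa1 and Ttr lay between 11.69 and 12.44 on the log2 scale in every group. Ppard itself read 4.36 to 4.58 in knockout fasted, 4.40 to 4.67 in wild-type fasted, 4.45 to 5.00 in knockout fed and 4.78 to 5.50 in wild-type fed livers, which does not separate the genotypes and, with the deleted part unknown, checks nothing about the labels. In the genotype difference averaged over feeding states, 0.963% of all genes were higher and 0.587% lower in knockout livers (limma, adjusted p under 0.05). Of 10 Kupffer cell and macrophage markers, 5 were higher and none lower. Their mean log2 level was 5.88 to 6.16 in knockout fasted against 5.40 to 6.01 in wild-type fasted livers, and 6.25 to 6.39 in knockout fed against 5.68 to 5.84 in wild-type fed livers. The 10 hepatocyte markers averaged 11.33 to 11.38 in knockout fasted and 11.08 to 11.24 in wild-type fasted livers, and 11.04 to 11.44 in knockout fed and 11.17 to 11.33 in wild-type fed livers. Elsewhere 1 of 9 endothelial markers was higher and 1 of 10 stellate cell and fibroblast markers lower in knockout livers. The single measured erythroid marker was lower too, at 7.25 to 7.70 in knockout fasted against 7.43 to 7.84 in wild-type fasted livers, and at 7.49 to 7.95 in knockout fed against 8.12 to 8.44 in wild-type fed livers. The mean of 6 pancreas markers was 2.85 to 3.21 in knockout livers, against up to 5.53 in 1 wild-type fasted liver. Knockout fed mice 1 and 4 stood apart from their group in an earlier analysis of these arrays, and without both the fed genotype difference given below was at its smallest for Asic5, -1.55, Mme, 1.24, and Tpmt, -0.80. The part of these shifts in the values below was not tested, and in whole liver a change in cell numbers cannot be told apart from a change in RNA per cell.

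**Figure D1:**
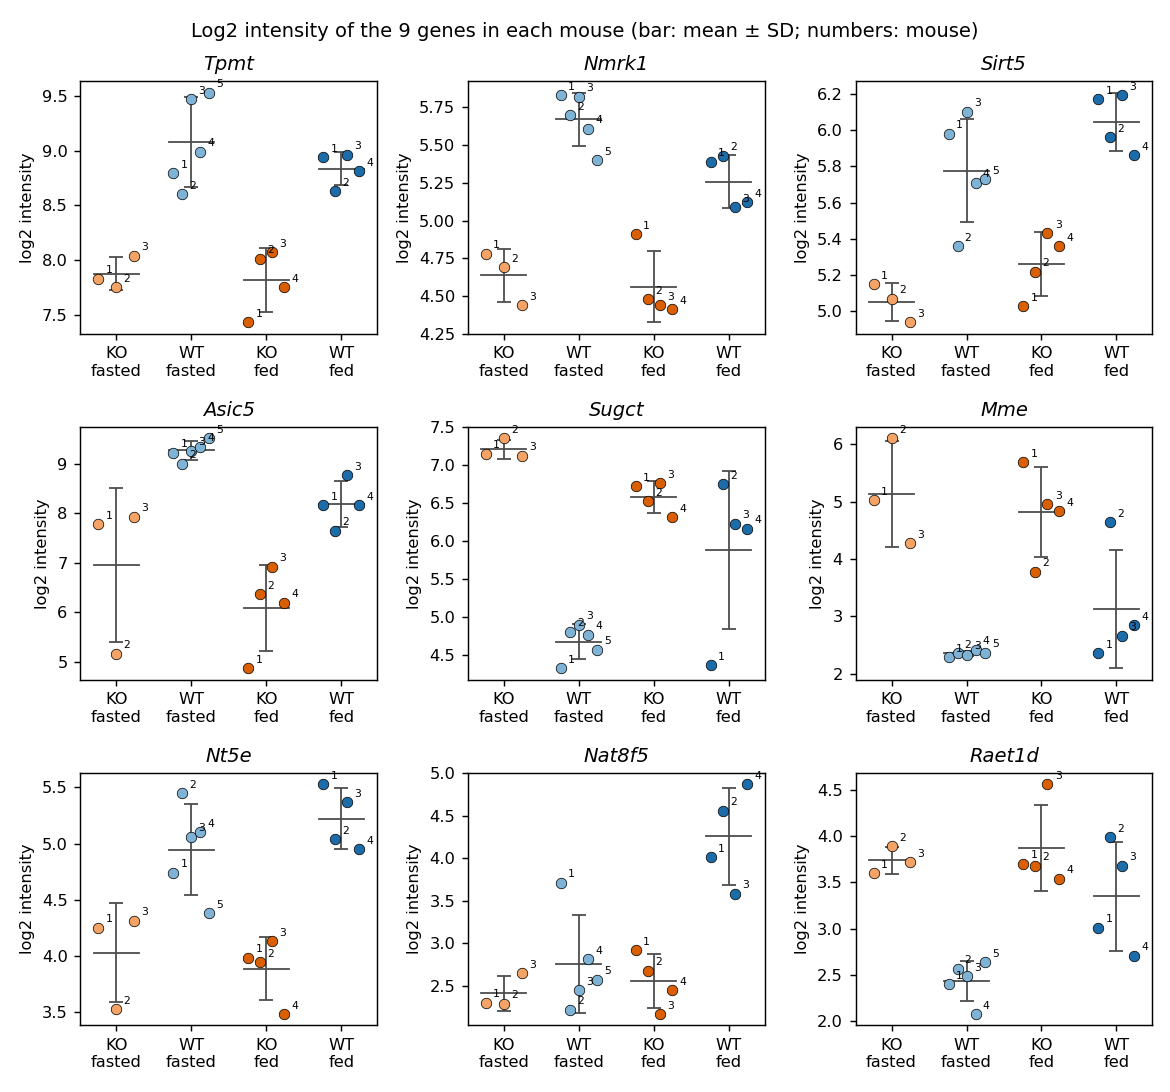
Log2 intensity (vertical axis) of each gene in every mouse, by group; points are mice with their replicate number, the horizontal bar is the mean and the whisker the SD. Tpmt, Nmrk1, Sirt5, Asic5 and Nt5e show knockout mice below wild-type mice within each feeding state, while Sugct, Mme and Raet1d have some wild-type fed mice at the knockout level.

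Taken by sign, 6 of the genes were lower and 3 higher in knockout livers. In 5 of them (Tpmt, Nmrk1, Sirt5, Asic5 and Nt5e) every knockout mouse lay below every wild-type mouse of the same feeding state, in fasted and in fed livers. Over all genes, 0.627% separated the same way in both feeding states, but separation by genotype is what these genes were picked for, so the count is a description. In Sugct, Mme and Raet1d the genotypes separated in fasted livers alone, and in Nat8f5 in fed livers alone. That makes 8 of 9 separated in fasted livers, where 8.25% of all genes were, and 6 of 9 in fed livers, where 6.7% were. Differences below are log2, knockout minus wild-type, ± the standard error from limma, and carry no p because they chose the genes.

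Among the enzymes, Tpmt was the brightest of the 9, with a mean over all arrays above that of 96.2% of genes. Its log2 intensities were 7.83, 7.75 and 8.04 in knockout fasted livers, against 8.79, 8.60, 9.47, 8.99 and 9.53 in wild-type fasted livers. In fed livers they were 7.43, 8.01, 8.07 and 7.75 in knockout mice, against 8.94, 8.63, 8.96 and 8.81 in wild-type mice. The nearest arrays of opposite genotype stood 0.56 apart in each feeding state. The difference was -1.20 ± 0.19 fasted and -1.02 ± 0.18 fed, so the signal in knockout livers was lower by a factor of 2.31 and 2.03.

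Nmrk1 read 4.78, 4.69 and 4.44 in knockout fasted livers, against 5.83, 5.70, 5.82, 5.61 and 5.40 in wild-type fasted livers. Fed livers gave 4.91, 4.48, 4.44 and 4.41 in knockout mice, against 5.39, 5.43, 5.09 and 5.12 in wild-type mice. The groups were apart in both states, by 0.62 fasted and by 0.18 fed, the smaller gap being set by knockout fed mouse 1 at 4.91. The differences were -1.04 ± 0.13 fasted and -0.70 ± 0.13 fed.

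Sirt5 showed the smallest averaged difference of the 9 and nearly the same one in each state, -0.72 ± 0.14 fasted and -0.78 ± 0.14 fed. Its values were 5.15, 5.07 and 4.94 in knockout fasted livers, against 5.98, 5.36, 6.10, 5.71 and 5.73 in wild-type fasted livers. Knockout fed livers gave 5.03, 5.22, 5.43 and 5.36, against 6.17, 5.96, 6.19 and 5.86 in wild-type fed livers. Within a feeding state no knockout mouse reached the wild-type range, the nearest fasted pair being 0.20 apart. Across states they met: knockout fed mice 3 and 4, at 5.43 and 5.36, read no lower, to the decimals given, than wild-type fasted mouse 2, at 5.36.

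Sugct behaved otherwise. Knockout fasted livers gave 7.15, 7.35 and 7.12, against 4.33, 4.81, 4.90, 4.77 and 4.57 in wild-type fasted livers, a gap of 2.22 between the nearest mice. In fed livers knockout mice gave 6.72, 6.52, 6.76 and 6.31, against 4.37, 6.75, 6.23 and 6.16 in wild-type mice. Thus 3 of 4 wild-type fed mice stood at or near the knockout level and only mouse 1 at the level of wild-type fasted mice. The difference was 2.53 ± 0.34 fasted and 0.70 ± 0.33 fed, and the fed value was 0.19 without wild-type fed mouse 1.

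Nat8f5 was the dimmest member. It read 2.30, 2.29 and 2.65 in knockout fasted livers, against 3.71, 2.22, 2.45, 2.81 and 2.57 in wild-type fasted livers, which overlap. In fed livers it read 2.92, 2.68, 2.17 and 2.45 in knockout mice, against 4.01, 4.56, 3.58 and 4.87 in wild-type mice, a gap of 0.67. Of the 7 knockout arrays 6 lay under log2 2.79, the 40th percentile of gene means, a range in which the files hold no detection call. The difference was -0.34 ± 0.30 fasted and -1.70 ± 0.29 fed. Wild-type fasted mouse 1, at 3.71, was the one fasted liver in the wild-type fed range, and the fasted difference was -0.10 without it.

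At the cell surface, Asic5 had the largest fall with the widest spread. It gave 7.78, 5.16 and 7.93 in knockout fasted livers, against 9.23, 9.01, 9.27, 9.35 and 9.52 in wild-type fasted livers. Knockout fed livers gave 4.87, 6.36, 6.92 and 6.19, against 8.17, 7.65, 8.77 and 8.17 in wild-type fed livers. The genotypes were 1.08 apart fasted and 0.73 apart fed, yet the SD among knockout mice was 1.55 fasted and 0.87 fed, against 0.18 and 0.46 among wild-type mice. Differences of -2.32 ± 0.51 fasted and -2.10 ± 0.49 fed correspond to a signal lower by a factor of 4.99 and 4.29. The fasted one was -1.42 without knockout fasted mouse 2.

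Nt5e read 4.25, 3.52 and 4.31 in knockout fasted livers, against 4.74, 5.45, 5.06, 5.10 and 4.38 in wild-type fasted livers. In fed livers it read 3.98, 3.94, 4.13 and 3.48 in knockout mice, against 5.53, 5.04, 5.37 and 4.95 in wild-type mice. The fed groups were 0.82 apart and the fasted groups 0.08, a gap set by knockout fasted mouse 3 and wild-type fasted mouse 5. Its differences were -0.92 ± 0.23 fasted and -1.34 ± 0.22 fed.

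Mme read 5.02, 6.10 and 4.27 in knockout fasted livers, against 2.29, 2.36, 2.33, 2.42 and 2.37 in wild-type fasted livers, the wild-type values all lying under log2 2.79. Knockout fed livers gave 5.68, 3.78, 4.95 and 4.83, against 2.36, 4.64, 2.66 and 2.85 in wild-type fed livers. A single wild-type mouse, fed mouse 2, lay in the knockout range. The differences on the log2 scale were 2.78 ± 0.47 fasted and 1.68 ± 0.45 fed, and no fold is drawn from them, since whether the wild-type signal stood above background is unknown.

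Raet1d, also dim, read 3.60, 3.89 and 3.72 in knockout fasted livers, against 2.40, 2.57, 2.49, 2.08 and 2.64 in wild-type fasted livers, 0.96 apart. Fed livers overlapped, with 3.70, 3.68, 4.56 and 3.54 in knockout mice and 3.01, 3.99, 3.68 and 2.71 in wild-type mice. The difference was 1.30 ± 0.25 fasted and 0.52 ± 0.25 fed. The fed value was 0.29 without knockout fed mouse 3 and 0.31 without wild-type fed mouse 4. Raet1 genes are close copies of each other that can share probe signal, and no other of them was analysed here.

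**Figure D2:**
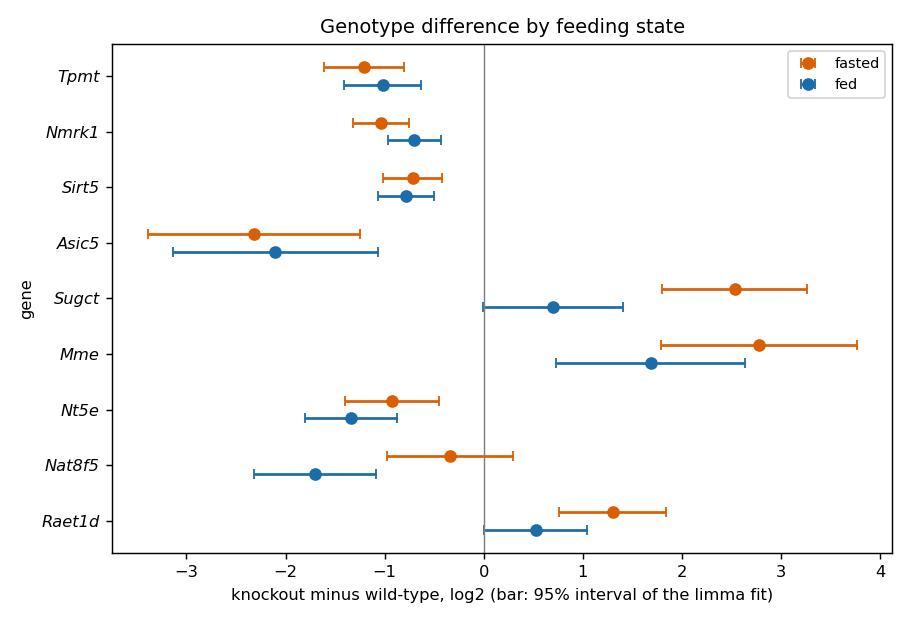
Knockout minus wild-type difference in log2 intensity (horizontal axis) for each gene, in fasted and in fed livers, with the 95% interval of the limma fit. The fasted and fed points of Tpmt, Sirt5 and Asic5 nearly coincide, whereas Sugct stands at 2.53 fasted and 0.70 fed, and Nat8f5 at -0.34 fasted and -1.70 fed.

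Whether 1 genotype step served both feeding states was described by the fasted step minus the fed step, which is also the fasting effect in knockout minus that in wild-type mice. With unadjusted 95% intervals, it was 0.07 (-0.35 to 0.48) for Sirt5, -0.18 (-0.75 to 0.38) for Tpmt, -0.34 (-0.73 to 0.05) for Nmrk1 and 0.42 (-0.25 to 1.08) for Nt5e. For Asic5 it was -0.22 (-1.71 to 1.27), an interval wide enough to hold changes of the step in either direction, and 0.68 without knockout fasted mouse 2. Mme gave 1.09 (-0.28 to 2.47). For 3 genes the interval lay above 0: Sugct at 1.83 (0.82 to 2.85), Nat8f5 at 1.37 (0.48 to 2.25) and Raet1d at 0.78 (0.03 to 1.53). For Sugct and Raet1d that means a larger step in fasted livers, and for Nat8f5 a smaller one. These intervals come from the contrasts that chose the genes and are not tests.

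Some mice stood out in several of the genes, though not in all. In the 3 higher genes, wild-type fed mouse 2 was the highest of its group each time, at 6.75 for Sugct, 4.64 for Mme and 3.99 for Raet1d, inside the knockout fed range for all of them. In the lower genes Tpmt, Asic5 and Nt5e the same mouse, at 8.63, 7.65 and 5.04, stayed above every knockout fed mouse, although knockout fasted mice 1 and 3 exceeded it for Asic5, at 7.78 and 7.93. In the remaining lower genes wild-type fed mouse 2 read 5.43 for Nmrk1, the highest of its group, 5.96 for Sirt5 and 4.56 for Nat8f5. Without it, the fed difference was 0.99 for Sugct, 2.19 for Mme and 0.74 for Raet1d. Asic5 and Mme ran opposite to each other within groups: knockout fasted mouse 2 and knockout fed mouse 1 had the lowest Asic5 of their groups, 5.16 and 4.87, and the highest Mme, 6.10 and 5.68. Over the 16 arrays, after each group's mean was removed, Asic5 and Mme had r = -0.68, Sugct and Mme r = 0.55, and Tpmt and Sirt5 r = 0.55, as a description of arrays that all pairs share. Other pairs ran against the direction of their genotype differences: Nmrk1 had r = -0.55 with Tpmt and r = -0.54 with Asic5, all of them lower in knockout livers, and r = 0.47 with Mme, which was higher. Whether these mice carried different strain alleles was not tested.

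**Figure D3:**
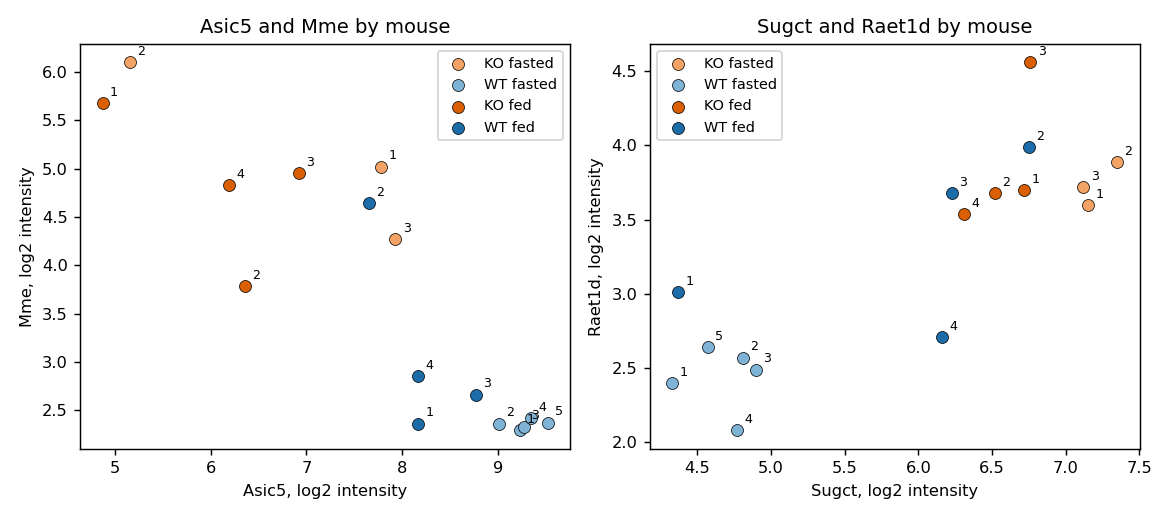
Log2 intensities of 2 pairs of genes plotted against each other, 1 point per mouse with its replicate number. On the left, knockout fasted mouse 2 and knockout fed mouse 1 combine the lowest Asic5 with the highest Mme; on the right, wild-type fed mouse 2 lies among knockout mice while wild-type fed mouse 1 lies near wild-type fasted mice.

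Fasting within a genotype was not a criterion for choosing the genes, and it was tested with p adjusted over all 19935 genes. The test still uses the arrays of the genotype differences: a gene picked because wild-type fed mice were high, such as Nat8f5, is more apt to be lower in wild-type fasted mice. The same goes for genes picked because wild-type fasted mice were low, such as Sugct and Raet1d. For a gene with wild-type fasted mice high, such as Nmrk1, a rise is more apt to be found. In wild-type livers 4 of 9 members passed, 1 higher and 3 lower in fasted mice, where 9.22% of all genes passed, 3.3% higher and 5.92% lower. Each of the 4 lay in the direction that the choice of genes makes more apt, so the count is a description. Nat8f5 fell by 1.51 ± 0.28 on the log2 scale (adjusted p = 0.00206), to a mean of 2.75 in fasted against 4.26 in fed livers, although wild-type fasted mouse 1 overlapped the fed range. Sugct fell by 1.20 ± 0.32 (adjusted p = 0.0231), to 4.68 in fasted against 5.88 in fed livers, with fed mouse 1 inside the fasted range. Raet1d fell by 0.91 ± 0.23 (adjusted p = 0.0197), to 2.43 against 3.35, every fasted mouse lying below every fed mouse, as in 6.99% of all genes. Nmrk1 rose by 0.42 ± 0.12 (adjusted p = 0.0403), to 5.67 against 5.26. Asic5 was 9.27 in fasted and 8.19 in fed wild-type livers, all fasted mice above all fed mice as in 5.25% of genes, and the difference of 1.08 ± 0.46 did not pass (adjusted p = 0.174).

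These calls differed in how far they rested on single mice. Over 24 alternatives the adjusted p of Nat8f5 ran from 0.000197 to 0.0105. That of Raet1d ran from 0.00512 to 0.0794 and missed in 3, without wild-type fed mouse 2 or 3 or wild-type fasted mouse 4. Sugct ran from 7.19e-06, without wild-type fed mouse 1, to 0.0846 and missed in 6, among them without wild-type fed mouse 2, 3 or 4 or wild-type fasted mouse 1. Nmrk1 ran from 0.00496 to 0.135 and missed in 8, among them without wild-type fed mouse 3 or 4, wild-type fasted mouse 1, 2, 3 or 4, or knockout fasted mouse 2. Asic5 passed when the 2 wild-type groups were fitted alone (adjusted p = 0.00367). It also passed without knockout fasted mouse 2 (adjusted p = 0.0351, within a range of 0.00367 to 0.329). That mouse enters this test only through the spread estimated over all groups.

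In knockout livers none of the 9 passed limma's test of fasting, where 3.67% of all genes did. None had an unadjusted p under 0.05 either, a threshold for which the share of all genes is not given here. The median change of the 9 was 0.08, against -0.02 over all genes. Sugct was the single member whose fasted mice, mean 7.21, all lay above the fed ones, mean 6.58, as in 6.17% of genes, at a difference of 0.63 ± 0.36 (adjusted p = 0.449). It passed when the 2 knockout groups were fitted alone (adjusted p = 0.0374). It also passed without wild-type fed mouse 1 (adjusted p = 0.0360, in a range of 0.0360 to 0.704). That mouse is in neither knockout group and enters this test only through the spread estimated over all groups. Asic5 differed by 0.87 ± 0.53 (adjusted p = 0.488), and passed without knockout fasted mouse 2, at 1.76 (adjusted p = 0.0327, in a range of 0.0327 to 0.903). Nat8f5, which fell in wild-type livers, gave -0.14 ± 0.31 (adjusted p = 0.906), with means of 2.41 in knockout fasted and 2.55 in knockout fed livers.

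**Figure D4:**
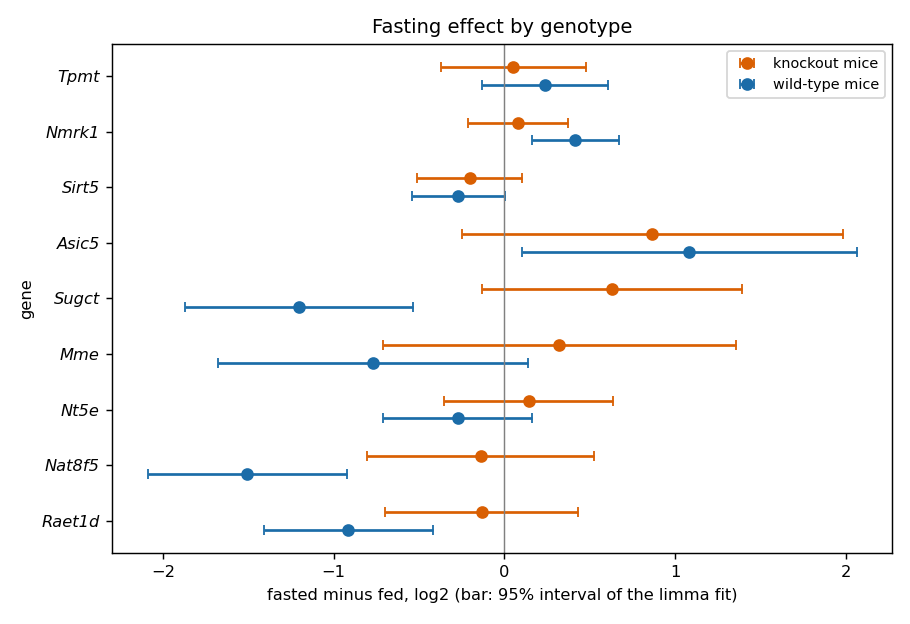
Fasted minus fed difference in log2 intensity (horizontal axis) for each gene, in knockout and in wild-type mice, with the 95% interval of the limma fit. In wild-type mice Nat8f5 (-1.51), Sugct (-1.20) and Raet1d (-0.91) lie below 0 and Nmrk1 (0.42) above it, while every knockout interval includes 0.

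The members sit on 6 chromosomes, by gene order in GRCm38.p6. Tpmt, Sirt5 and Sugct are on chromosome 13, Asic5 and Mme on 3, Nt5e on 9, Nat8f5 on 6, Raet1d on 10 and Nmrk1 on 19; Ppard is on none of these. Among the 734 tested genes of chromosome 13, Tpmt and Sirt5 are 18 places apart and Sugct lies 213 places from Sirt5. Asic5 and Mme are 60 places apart among the 945 of chromosome 3. Over all genes, 1.55% passed in the genotype difference averaged over feeding states. On chromosome 13 the share was 2.59% and on chromosome 3 it was 2.96%, members included. It was 2.065% on chromosome 19, 1.714% on 9, 1.272% on 6 and 0.9585% on 10. The highest share, 3.226%, was on chromosome 8, which holds no member.

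Few genes next to the members passed. Of 177 distinct genes within 10 places of a member, 5 passed, 2.83%, and of 417 within 25 places 8 passed, 1.92%, against 1.55% of all genes. The members themselves are left out of both counts, Tpmt and Sirt5 in each other's wider window included. Nat8, which stands next to Nat8f5 and belongs to the same family, was lower in knockout livers by -0.82 ± 0.14 (adjusted p = 0.00432), with means of 3.20 in knockout fasted against 3.74 in wild-type fasted and 3.00 in knockout fed against 4.10 in wild-type fed livers. Me1, which makes NADPH from malate, lies 9 places from Nt5e and was lower by -0.79 ± 0.16 (adjusted p = 0.0203). The other 3 were Fam8a1 near Tpmt (-0.27 ± 0.06, adjusted p = 0.0395), Gna14, a G protein subunit, near Nmrk1 (-0.46 ± 0.11, adjusted p = 0.0403), and Ssr3, of the translocon of the endoplasmic reticulum, near Mme (0.26 ± 0.06, adjusted p = 0.0472). Each had the sign of the member beside it. None of the genes within 10 places of Sirt5, Asic5, Sugct or Raet1d passed in limma's test, while 3, 7, 1 and 2 of them, in that order, had an unadjusted p under 0.05. What share of all genes reached that unadjusted threshold is not given here. The median difference around these 4 members lay between -0.05 and 0.08. Within 25 places, Ero1b and Gpr137b-ps near Sugct and Bckdhb near Nt5e passed as well in limma's test. Ero1b, 17 places from Sugct, was higher by 0.55 ± 0.09 (adjusted p = 0.0047). Gpr137b-ps, 16 places from Sugct, was higher by 0.61 ± 0.13 (adjusted p = 0.0268) but dim, with group means of 2.07 to 2.92. Bckdhb, 17 places from Nt5e, was lower by -0.50 ± 0.07 (adjusted p = 0.00193).

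**Figure D5:**
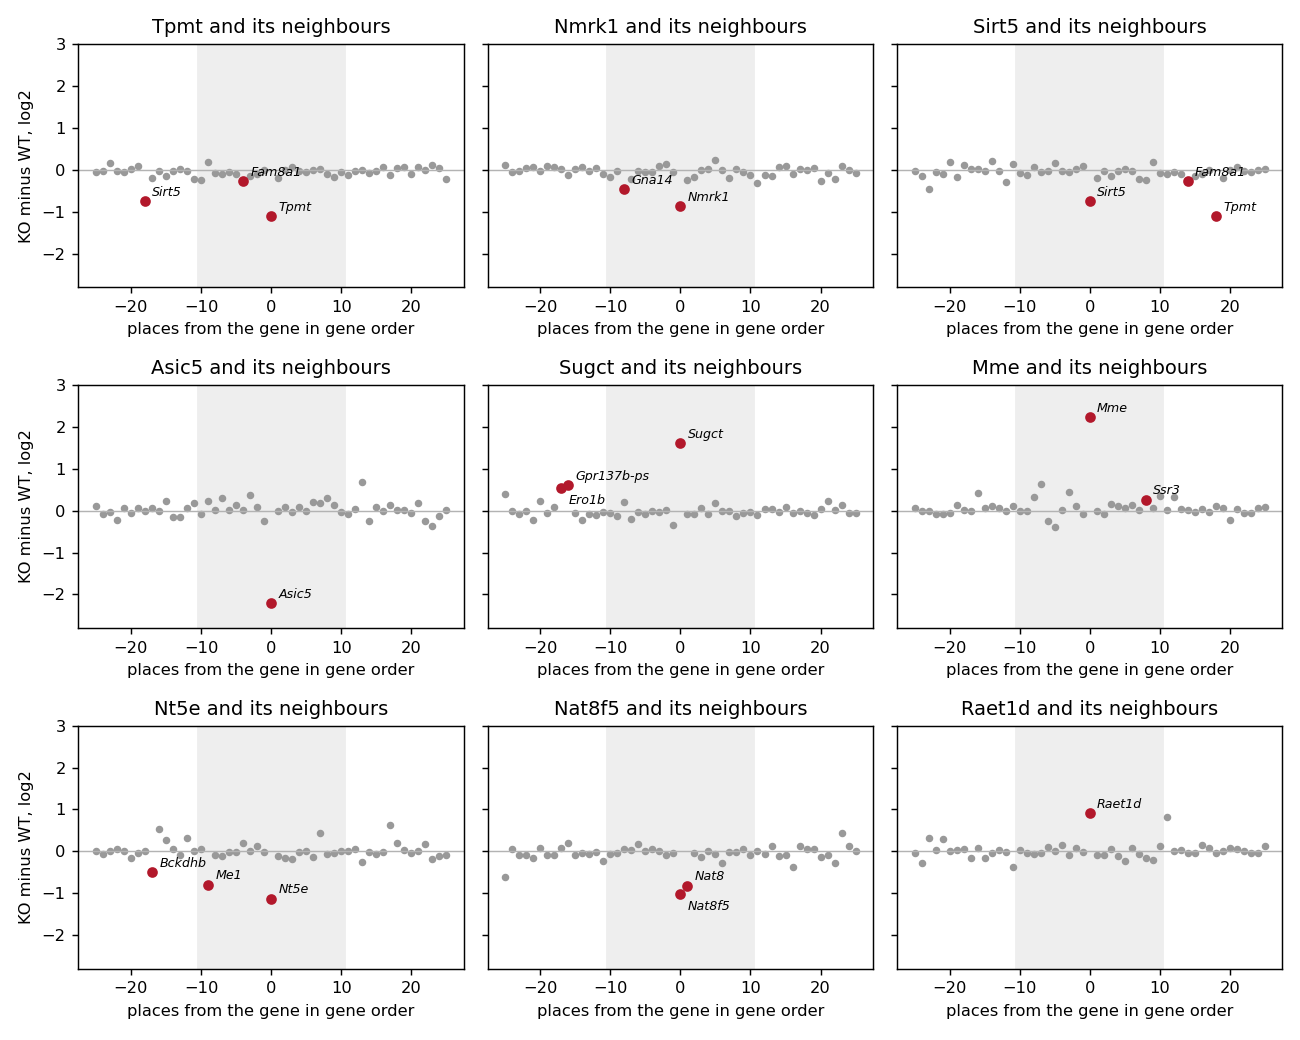
Knockout minus wild-type difference in log2 intensity, averaged over feeding states (vertical axis), for each member and the 25 tested genes on each side (horizontal axis, places in gene order); red points passed at an adjusted p under 0.05 and the shaded band marks 10 places. Nat8 (-0.82) lies beside Nat8f5 and Me1 (-0.79) 9 places from Nt5e, whereas no neighbour of Asic5 or Raet1d in these windows passed.

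As a description of likeness, Pearson's r with every other gene was computed over the 16 arrays, which share the genotype and feeding groups. The closest gene was Cd59a for Tpmt (r = 0.942), an inhibitor of complement on cell surfaces, with means of 6.52 in knockout fasted against 7.67 in wild-type fasted livers and 6.36 in knockout fed against 7.43 in wild-type fed livers. Naip2 was closest to Raet1d (r = 0.906), Gpr137b-ps to Mme (r = 0.904), Abhd14b to Sugct (r = 0.898), Pde4c to Nmrk1 (r = 0.889), Rps3a1 to Asic5 (r = 0.883), Washc5 to Sirt5 (r = 0.880), Ctsk to Nt5e (r = 0.858) and Smo to Nat8f5 (r = 0.853). Rps3a1 lies 26 places from Asic5 on chromosome 3, just outside the windows in which neighbours were counted. Like Asic5, its mean was lower in knockout livers, at 8.36 in knockout fasted against 9.02 in wild-type fasted livers. In fed livers the Rps3a1 means were 8.22 in knockout against 8.93 in wild-type mice. Whether Rps3a1 passed by genotype is not given here. Some members were among each other's 20 closest genes, such as Asic5 and Sirt5 for Tpmt, and Mme and Raet1d for Sugct. Of the 20 closest genes, 4 lay on the member's own chromosome for Sirt5, Sugct and Mme, 3 for Tpmt, Nt5e and Nat8f5, 2 for Raet1d, 1 for Asic5 and none for Nmrk1, where these chromosomes carry between 3.4% and 5.86% of the genes.

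The genes around each member in its own pathway were compared between genotypes, averaged over feeding states. Over all genes 1.55% passed, 0.963% higher and 0.587% lower, with a median difference of -0.01. These shares are for adjusted p. No share of all genes at an unadjusted p under 0.05 is given here, so list counts at that threshold have no baseline. Of 23 measured genes of NAD synthesis and breakdown, 10 had an unadjusted p under 0.05 in limma's test, with a median of -0.04. After adjustment 3 were higher and none lower in knockout livers. They were Acmsd, which diverts a tryptophan product away from NAD (1.09 ± 0.26, adjusted p = 0.0416), Nnt, the mitochondrial transhydrogenase (0.52 ± 0.10, adjusted p = 0.0126), and Kmo of the kynurenine pathway (0.38 ± 0.08, adjusted p = 0.0299). Nnt averaged 8.44 in knockout fasted against 8.31 in wild-type fasted livers, and 8.10 in knockout fed against 7.19 in wild-type fed livers. It is a gene that C57BL/6J mice carry in a partly deleted form, and whether strain sequence had a part in these values was not tested.

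Of 13 sirtuins and partner enzymes, none passed in limma's test by genotype, with 3 at an unadjusted p under 0.05. Sirt3 gave -0.21 ± 0.07 (adjusted p = 0.199) and Sirt4 0.28 ± 0.12 (adjusted p = 0.379). Of 17 genes of lysine and glutarate breakdown around Sugct, 1 was lower, Hadh, a dehydrogenase of fatty acid oxidation (-0.35 ± 0.05, adjusted p = 0.00193), and the median was -0.05. In that list 4 had an unadjusted p under 0.05. Of 9 genes of the N-acetyltransferase 8 family and mercapturate steps, 2 were lower, Nat8 and Acy1, which removes acetyl groups from amino acids (-0.59 ± 0.14, adjusted p = 0.0408), with a median of -0.04. No more than these 2 had an unadjusted p under 0.05. Nat8f1, Nat8f2 and Nat8f4 gave 0.01, -0.04 and -0.14 and did not pass. Whether these family members share probe signal with Nat8f5 was not tested.

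Of 22 genes listed for nucleotide and adenosine handling in or outside cells, Nt5e left out, 1 was lower, Entpd5 (-0.30 ± 0.07, adjusted p = 0.0269), with a median of -0.03. In that list 9 had an unadjusted p under 0.05. None passed by limma in 4 further lists. Of 10 methyltransferase and methionine cycle genes (median 0.01) and 7 acid-sensing and epithelial sodium channels (0.03), 0 had an unadjusted p under 0.05, as did 2 of 10 cell surface peptidases (-0.05) and 1 of 3 genes of NKG2D recognition (-0.01). Fasting moved more of these lists in wild-type livers, where 9.22% of all genes passed: 5 NAD genes rose and 5 fell, 5 lysine genes rose and none fell, and in the nucleotide list 3 rose and none fell. In knockout livers, where 3.67% passed, 1.87% higher and 1.8% lower, the counts were 2 NAD genes up, 3 lysine genes up and 1 nucleotide gene up, with none down. Among those, Hykk, a lysine pathway kinase, rose by 1.01 ± 0.16 in knockout livers (adjusted p = 0.0022) and by 0.97 ± 0.14 in wild-type livers (adjusted p = 0.000366). In the sirtuin list, Sirt3 rose by 0.53 ± 0.10 in knockout livers (adjusted p = 0.0087) and by 0.36 ± 0.09 in wild-type livers (adjusted p = 0.0197).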

How the data were processed

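Livers of 16 male mice were measured on Affymetrix whole-transcript arrays. The deposited values are linear intensities that the authors normalized with RMA, per the submitters' processing notes; its version and the genome build are not stated there. Array medians lay between 8.08 and 8.61, no array pair was identical, and log2 was taken here. Probe sets paired with 1 symbol in the platform annotation were used (21780; 1605 had several and 12134 none), the brightest standing for a gene. limma 3.58.1 in R 4.3.3 fitted 4 group means (lmFit, eBayes; 12 residual and 4.55 prior degrees of freedom), two-sided, with Benjamini-Hochberg adjustment over 19935 genes and a threshold of 0.05. The fit was tested on simulated data. The number of arrays limits precision.

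The members, lists and alternatives were chosen with earlier results of these data known. Named besides the members were the closest gene by r, up to 4 neighbours that passed, and up to 3 genes per list that passed, with all measured genes of a member's own family. Gene order and names came from GRCm38.p6. The 24 alternatives cover normalization, dim genes (under log2 2.79, the 40th percentile of gene means), probe sets, variance model, replicate block, samples fitted and each array left out.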

Additional observations from a re-analysis of the deposited data

Results flagged for a closer look

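In 27 groups of 4 or 5 mice, 2 held a mouse far from the rest of its group, both past Dixon's 95% critical value, where chance gives about 1 group in 20. For Nmrk1, knockout fed mouse 1 at 4.91 stood above the other knockout fed mice by 0.842 of the group's range. For Raet1d, knockout fed mouse 3 at 4.56 stood above the others by 0.838 of the range. Groups of 3 were not examined in this way.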

How the results depend on the processing

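The sign of each genotype difference of the 9 genes, fed, fasted and averaged, was the same under all alternatives run. Counts over all genes moved more. Without knockout fed mice 1 and 4, genes called by genotype numbered 51 in fed livers (135 with all arrays) and 171 averaged (309), and by fasting in knockout livers 218 (732). Fits of the 2 groups alone gave 76 and 401 for fed genotype and knockout fasting. Leaving out single mice gave 59 to 274 genes for genotype in fed livers (moved over 1.5 times by each fed mouse but knockout mouse 2), 21 to 126 in fasted livers against 107 with all (knockout fasted mice 1, 2 and 3, wild-type fasted mice 4 and 5) and 175 to 359 averaged (knockout fasted mice 2 and 3). It gave 330 to 951 for fasting in knockout livers (knockout fasted mice 1, 2 and 3, knockout fed mouse 1) and 1199 to 2006 in wild-type livers against 1838 (wild-type fed mouse 3). For the difference between the fasting effects the 2 genes past the threshold were Hsd3b5 and Tc2n, named after their values were seen; single mice left out gave 0 to 8, and 1 passed without dim genes, with an intensity trend, without knockout fed mice 1 and 4, or with the replicate block, which changed no call of a member. Whether replicate numbers pair the mice was not settled. Deviations of same-numbered mice correlated between -0.253 and 0.231 over 21 pairs, and 6 were above 0.1. Pairs of wild-type fed with wild-type fasted mice ran from 0.0787 to 0.118. Mice of different numbers were not correlated for comparison. Uncalled fasting values in knockout livers changed sign. Without knockout fed mice 1 and 4, Tpmt was -0.17 and Nt5e -0.0091; with single mice left out, Tpmt ran from -0.074 to 0.138, Mme from -0.164 to 0.752 and Raet1d from -0.245 to 0.0957. The causes were not tested. Signal over background is unknown, which limits Mme, Nat8f5 and Raet1d.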
